A study of Mus musculus with 6 samples.

Results

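Integrin subunits and tetraspanins form the set described here: all genes with a probe on the array whose accession led to an integrin alpha or beta subunit symbol, a numbered Tspan symbol, or 1 of the tetraspanins known by a CD name. By this rule 51 genes with 70 probes were taken, 24 integrin subunits and 27 tetraspanins, of 20659 genes with a probe in all. The rule looks only at names and at no measured value. Itga10 and Itgae, which the gene table also holds, had no matched probe and were not analysed here. B16-F1 and D5.1G4 are established mouse melanoma lines, and RNA of each was hybridised to 3 one-colour Agilent whole-genome arrays. No genetic change, agent or treatment is named for either line, and both were grown for 24 h in RPMI-1640 with 10% serum, starting from 1000000 cells in 6-well plates and reaching a confluence of 75% to 95%. The series title sets the lines apart by tumorigenicity, and its design text uses D5.1G4 as the reference, so every difference below is B16-F1 minus D5.1G4. Nothing in the labels says that replicates were separate cultures, so the p-values reflect the spread of these arrays alone, and that spread may be technical.

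Integrins are cell surface receptors made of 1 alpha and 1 beta subunit. The pair decides the ligand, which may be fibronectin, vitronectin, laminin, collagen or a counter-receptor on another cell, and the cytoplasmic tail of the beta subunit binds talin and kindlin, which tie the receptor to actin. Tetraspanins are small proteins that cross the membrane several times and gather integrins, immunoglobulin-like proteins and proteases into membrane patches. Several members of both families are known for roles in melanoma cell adhesion, invasion and metastasis.

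Values are given as log2 signal minus the 75th percentile of the array, so 0 marks the 75th percentile and a step of 1 is a factor of 2. The share of spots well above background was 62% and 61.7% on B16-F1 replicates 2 and 3 and ran from 53.4% to 54.4% on the other 4 arrays, and no spot was saturated. Arrays of 1 line correlated across features at 0.983 to 0.993 and arrays of different lines at 0.942 to 0.957, where features are not independent replicates. Per the file headers the arrays were read in 3 scans: the same B16-F1 replicates 2 and 3 in the first, B16-F1 replicate 1 with D5.1G4 replicates 2 and 3 in the second, and D5.1G4 replicate 1 in the third. All 8 melanocyte markers (Mitf, Sox10, Tyr, Tyrp1, Dct, Pmel, Mlana and Slc45a2) were well above background on every array, and 1 of them was called, Slc45a2 at 1.22. Of 6 endothelial markers, Cdh5, Tek and Emcn were not above background on any array, whereas Pecam1, Kdr and Vwf were on all 6 and were not called. Of 6 fibroblast markers, Pdgfra, Dcn and Thy1 were not above background on any array, Lum was on 1, and Col1a1 (1.73) and Col1a2 (-3.74) were both called, with a summed level of 0.29 to 0.44 in B16-F1 and 1.26 to 1.47 in D5.1G4. Of 6 epithelial markers, Epcam, Krt8 and Krt18 were not above background on any array, Krt5 and Krt14 were on all 6 and were not called, and Cdh1 was called lower (-2.02). The part of other cells in the results was not tested. Features with an adjusted p up to 0.05 that also differed 2-fold or more are said to be called higher or lower, and only they are said to have changed. In a bulk sample fewer cells with a transcript and less of it per cell cannot be told apart.

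Of the 51 members, 39 could be tested, being well above background on 3 or more arrays, 16 integrin subunits and 23 tetraspanins. B16-F1 had higher levels of 4 integrin subunits, Itgb1, Itgav, Itga1 and Itga7, and no integrin subunit was called lower. Tetraspanins went both ways, with Tspan15 and Tspan7 higher and Tspan18, Tspan33, Tspan2 and Cd81 lower. These 10 called members stand beside 15.2% of all 18454 features tested, 6.28% called higher and 8.9% called lower. Among integrin subunits 25% were called and among tetraspanins 26.1%, with median differences of 0.23 and -0.02, against -0.00 over all features. Without a minimum fold, 7 integrin subunits and 11 tetraspanins had an adjusted p of 0.05 or less, beside 34.9% of all features. No overlap between the lines' arrays was seen for 21 of the 35 tested members measured on all 6 arrays, beside 50.7% of all such features.

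**Figure D1:**
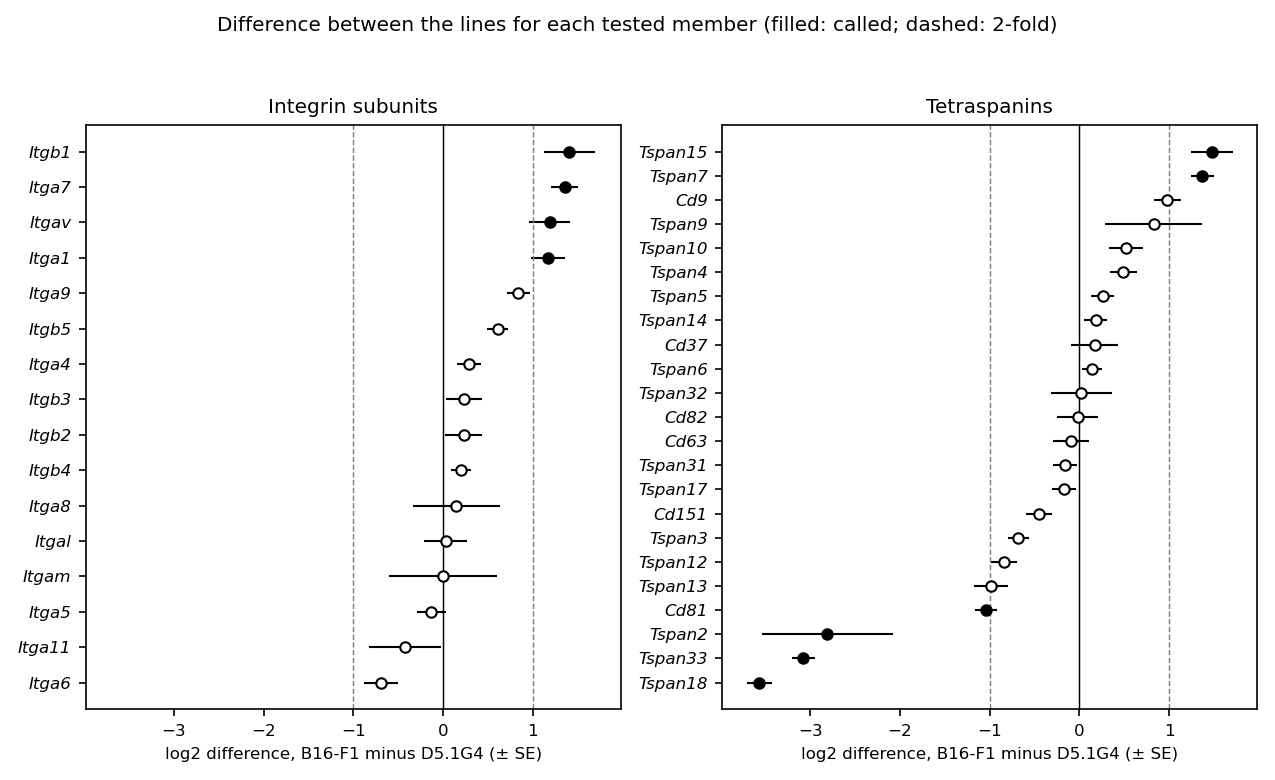
Log2 difference, B16-F1 minus D5.1G4, with its standard error for the 16 tested integrin subunits (left) and the 23 tested tetraspanins (right), n = 3 arrays in each line except where a spot was left out; filled points were called, open points were not, and dashed lines mark a 2-fold difference. The 4 called integrin subunits lie between 1.17 and 1.41, and called tetraspanins that were above background in both lines run from -3.08 for Tspan33 to 1.48 for Tspan15; Tspan18 is drawn at its fitted value but has only a bound, at least 2.44-fold lower.

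The beta subunit that most integrin alpha chains pair with, Itgb1, was higher in B16-F1. Its values were 2.09, 1.98 and 2.97 in B16-F1 replicates 1, 2 and 3 and 1.10, 0.96 and 0.74 in D5.1G4. The lines did not overlap, and B16-F1 replicate 3 stood above the other two. The difference was 1.41 (SE 0.28, 2.66-fold, adjusted p = 0.0112). A second, dimmer Itgb1 probe gave 2.02, with -0.68 in B16-F1 replicate 3 against -4.14 and -3.35 in the other two. In D5.1G4 that probe measured -3.67, -5.35 and -5.21, so by it the lines overlapped. On D5.1G4 arrays that probe was above background 1 time in 3. Without B16-F1 replicate 3 the difference was 1.10 (adjusted p = 0.00886). The call was lost with scan as a block (1.24, adjusted p = 0.117), with the mean over probes (1.72, adjusted p = 0.0759) and with normexp background correction (1.38, adjusted p = 0.0578).

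Itgav, the alpha subunit of the vitronectin and fibronectin receptors that recognise the RGD motif, measured -0.68, -0.56 and 0.02 in B16-F1 and -1.30, -1.66 and -1.82 in D5.1G4. All B16-F1 arrays were above all D5.1G4 arrays, and replicate 3 was again the highest. The difference was 1.19 (SE 0.23, 2.28-fold, adjusted p = 0.0106). Its second probe, above background on all 6 arrays, did not separate the lines: values lay between -2.29 and -2.06 in B16-F1 and between -2.15 and -2.01 in D5.1G4, a difference of -0.05. The mean of both Itgav probes was 0.57, short of a 2-fold difference. The Itgav call was also lost without B16-F1 replicate 3 (0.97), with scan as a block (1.06, adjusted p = 0.0673) and without the arrays of the first scan (0.91, adjusted p = 0.102).

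Itga1, the alpha subunit of a collagen receptor, measured -2.49, -2.63 and -2.94 in B16-F1 and -4.16, -3.71 and -3.69 in D5.1G4. These groups did not overlap and differed by 1.17 (SE 0.19, 2.25-fold, adjusted p = 0.00512). Another Itga1 probe was not above background on any array, and the mean over both was 0.37, which was not called (adjusted p = 0.236). Itga7, the alpha subunit of a laminin receptor best known from muscle, had -2.83, -2.70 and -2.47 in B16-F1 against -3.95, -4.20 and -3.92 in D5.1G4. Its arrays were tight within each line, and the difference was 1.36 (SE 0.15, 2.57-fold, adjusted p = 0.00116). With normexp background correction neither Itga1 (0.82, adjusted p = 0.215) nor Itga7 (0.91, adjusted p = 0.109) was called. Within the second scan, where 1 B16-F1 array stands for its line, Itgb1, Itgav, Itga1 and Itga7 differed by 1.24, 1.06, 1.21 and 1.23.

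**Figure D2:**
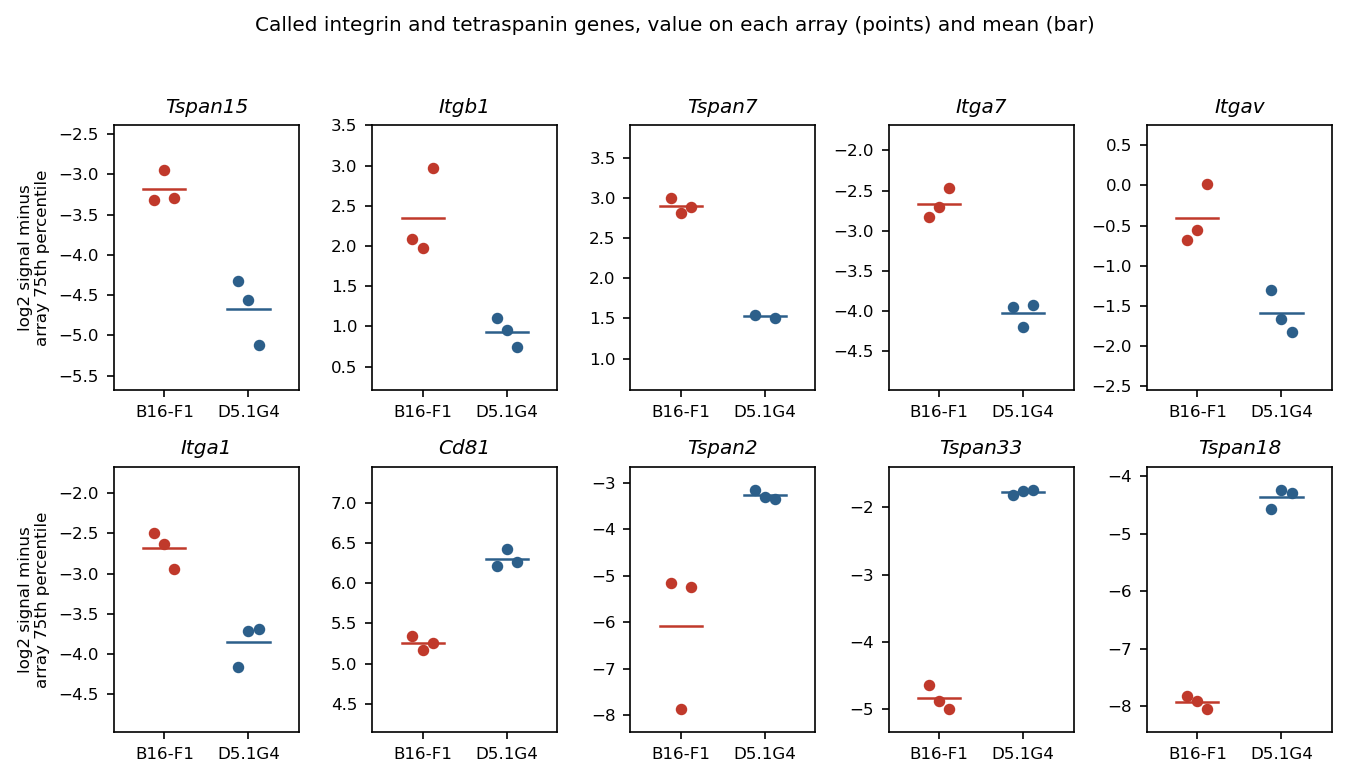
Level of the 10 called genes on each array, as log2 signal minus the 75th percentile of the array; points are arrays, bars are line means, axes differ in range between panels, and Tspan7 has 2 D5.1G4 points because 1 spot was left out. In every panel the B16-F1 points lie all above or all below the D5.1G4 points, with 1 distant B16-F1 point each for Itgb1 (2.97) and Tspan2 (-7.87).

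The start regions of Itgb1 and Itgav are shown because both genes were called higher and their products can form 1 receptor. Each is the RefSeq window on GRCm38.p6 from 250 bases before to 50 after the gene's start, and capitals mark the GC box GGGCGG, searched on both strands. Both lie on the + strand, Itgb1 at chr8:128685404-128685703 and Itgav at chr2:83724147-83724446.
Itgb1: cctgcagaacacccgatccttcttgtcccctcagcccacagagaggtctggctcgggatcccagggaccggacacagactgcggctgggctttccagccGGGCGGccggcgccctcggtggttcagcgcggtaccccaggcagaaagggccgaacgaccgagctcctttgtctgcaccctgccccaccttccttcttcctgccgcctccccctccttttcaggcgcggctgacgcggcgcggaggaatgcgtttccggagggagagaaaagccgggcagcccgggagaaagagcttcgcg
Itgav: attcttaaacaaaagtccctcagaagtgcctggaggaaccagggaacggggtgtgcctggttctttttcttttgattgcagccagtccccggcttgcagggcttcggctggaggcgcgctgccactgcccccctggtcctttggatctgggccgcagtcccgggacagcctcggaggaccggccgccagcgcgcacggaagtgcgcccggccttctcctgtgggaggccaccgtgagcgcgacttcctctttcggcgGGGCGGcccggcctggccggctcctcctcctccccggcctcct
Each window held 1 GC box, which 35.7% of all 32851 windows of this length hold, and 67.3% of bases in each were G or C, where the median of all windows was 52.7%. The other motifs searched on both strands, were not found in these windows. They were the TATA box with the letters TATAAA, held by 13.6% of all windows, and the site of the AP-1 factors with the letters TGANTCA, held by 7.81%. The E-box, with the letters CACGTG, was held by 7.15% of all windows, and the ETS site, with the letters CCGGAAG, by 8.86%. The core of the M-box, which the pigment cell factor MITF can bind and which has the letters CATGTG, was held by 14.2%. Over the 55 windows of the 43 members in the table, that core was found in 14.5% and the GC box in 45.5%. Such matches describe the letters only.

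The other 12 tested integrin subunits were not called. Itga6, the alpha subunit of laminin receptors, measured 1.04, 0.88 and 1.21 in B16-F1 and 1.93, 1.38 and 1.88 in D5.1G4. This was the only integrin subunit whose adjusted p passed with a negative difference (-0.69, SE 0.19, adjusted p = 0.0328), and it stayed under 2-fold. Itga9, which pairs with Itgb1 and binds tenascin and osteopontin, had -3.49, -3.50 and -3.26 in B16-F1 against -4.38, -4.27 and -4.13 in D5.1G4, a difference of 0.84 (SE 0.13, adjusted p = 0.00418). Itgb5, a partner of Itgav in a vitronectin receptor, had 3.61, 3.77 and 3.53 against 2.91, 3.08 and 3.10, a difference of 0.61 (SE 0.12, adjusted p = 0.0116). For Itga9 and Itgb5, too, the lines did not overlap and the fold stayed under 2.

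Among receptors often studied in melanoma, Itga4, which with Itgb1 binds VCAM-1 and fibronectin, measured 3.14, 3.29 and 3.22 in B16-F1 and 2.94 and 2.92 in D5.1G4, where the spot of replicate 2 was left out. Its difference of 0.29 did not pass (adjusted p = 0.141). Itgb3, which with Itgav forms a vitronectin receptor linked to invasive melanoma growth, had -0.40, -0.62 and -1.00 in B16-F1 and -1.14, -0.87 and -0.70 in D5.1G4, and the lines overlapped (0.23, SE 0.20, adjusted p = 0.406). Itga5, the main fibronectin receptor alpha subunit, overlapped as well, at -2.45, -2.91 and -2.75 against -2.73, -2.57 and -2.43 (-0.13, adjusted p = 0.569). Itgb4, the beta subunit of the hemidesmosome receptor, lay between -1.95 and -1.84 in B16-F1 and between -2.18 and -2.03 in D5.1G4, with an adjusted p of 0.194. Itga8 and Itga11 were dim and variable: their B16-F1 values ran from -5.79 to -3.84 and from -5.97 to -4.49, and their adjusted p-values were 0.838 and 0.464.

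Leukocyte integrins gave no call. Itgb2, the beta subunit that leukocyte alpha chains share, measured -3.41, -2.70 and -3.07 in B16-F1 and -3.10, -3.34 and -3.44 in D5.1G4 (0.23, adjusted p = 0.419). Itgal, its partner in the ICAM receptor of lymphocytes, differed by 0.03 and Itgam, its partner on myeloid cells, by 0.00. Itgam was the least repeatable of the tested integrin subunits by its standard error of 0.60, with -0.49, 0.59 and -1.32 in B16-F1, and another of its probes gave -0.74. Of 9 leukocyte markers with a probe, Lyz2 and Itgax were not above background on any array and Ptprc, which encodes CD45, on 2 B16-F1 and 0 D5.1G4 arrays, while 5 could be tested and 0 were called. That list's summed level ran from -1.51 to -0.30 in B16-F1 and from -1.12 to -0.68 in D5.1G4.

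8 integrin subunits were not tested. Itga2, Itga2b, Itga3, Itgad, Itgax, Itgb6 and Itgb8 were not well above background on any array, and Itgb7 was on 1 B16-F1 array. Among them are the collagen receptor subunit Itga2 and the laminin receptor subunit Itga3. For these genes the arrays give no difference between the lines.

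Subunits were then compared within pairs known to form receptors. Of 24 such pairs, 14 had both subunits tested, and in 3, Itgav/Itgb1, Itga1/Itgb1 and Itga7/Itgb1, both were called higher. In these 3 pairs the ratio of alpha to beta within an array differed between the lines by -0.22, -0.24 and -0.05, with overlapping arrays. Where arrays of a pair with Itgb1 did not overlap, the alpha subunit was not called, and the ratio in part restates the higher Itgb1 in the shared denominator. The alpha subunit's own difference enters too, such as -0.69 for Itga6 and 0.84 for Itga9. The ratio of Itga6 to Itgb1 was lower in B16-F1 at -2.10 (SD 0.40 in B16-F1 and 0.36 in D5.1G4). The same ratio was -1.83 for Itga11, a dim gene well above background on 1 B16-F1 and 2 D5.1G4 arrays. It was -1.54 for Itga5, -1.14 for Itga4 (3 against 2 arrays) and -0.57 for Itga9. In these 5 ratios every B16-F1 array was below every D5.1G4 array, as it was for Itga6 to Itgb4 (-0.89).

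The remaining pairs overlapped. The ratio of Itgav to Itgb3 differed by 0.95 (exact permutation p = 0.2) and that to Itgb5 by 0.58 (exact permutation p = 0.3). Itga8/Itgb1 differed by -1.26, with B16-F1 replicate 2 inside the D5.1G4 range, and Itgal and Itgam relative to Itgb2 by -0.21 and -0.23. The exact permutation test, 2-sided, gave p = 0.1 for each of the 6 pairs whose arrays did not overlap, the smallest it can give with these arrays, and 0.233 after Benjamini-Hochberg adjustment over the 14 pairs, so no ratio passed as different. The 9 tested pairs with Itgb1 share 1 Itgb1 probe and are not independent, and B16-F1 replicate 3, where Itgb1 was highest, had the lowest ratio in each of them.

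**Figure D3:**
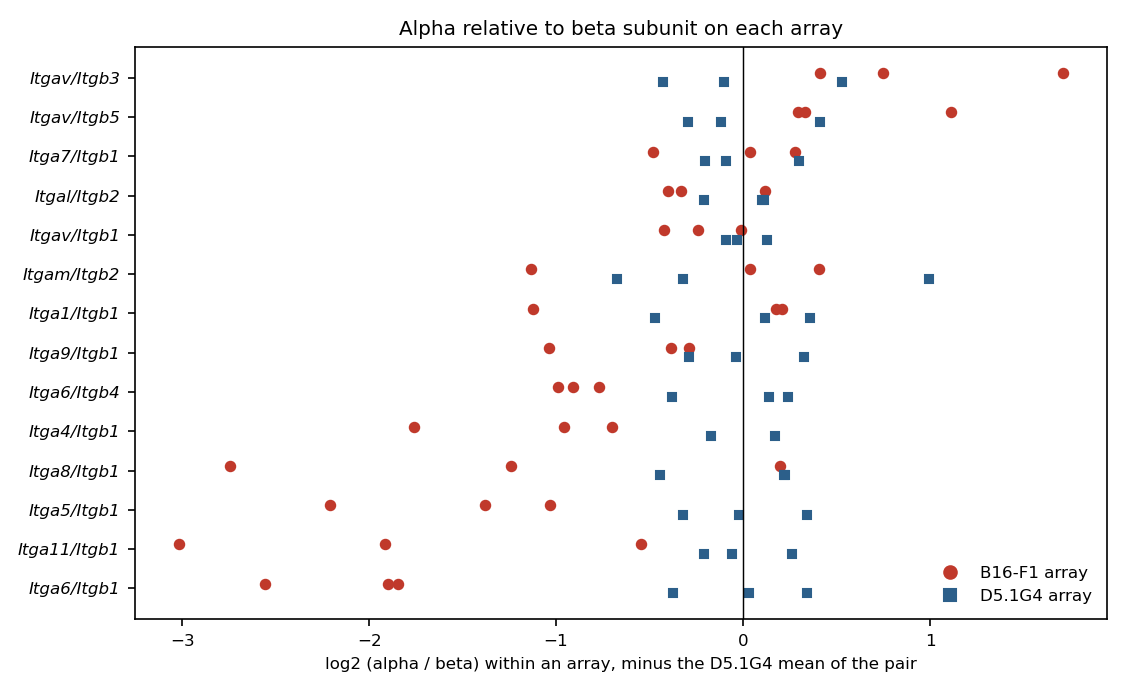
Ratio of alpha to beta subunit within each array for the 14 pairs with both subunits tested, on a log2 scale and set to 0 at the D5.1G4 mean of the pair; circles are B16-F1 arrays and squares D5.1G4 arrays. B16-F1 circles lie left of all D5.1G4 squares for Itga6, Itga11, Itga5, Itga4 and Itga9 relative to Itgb1 and for Itga6 relative to Itgb4.

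By fitted value the largest differences of the set were lower levels of Tspan18, Tspan33 and Tspan2 in B16-F1, where each was at or near background. With normexp background correction they were -0.70, -1.58 and -0.75, beside 1.38 for Itgb1 and 1.23 for Tspan7, so the ranking depends on the background treatment. Tspan33, a tetraspanin known from red cell precursors and activated B cells and one of the TspanC8 group that carries the protease ADAM10 to the cell surface, was above background on all 6 arrays. It measured -4.65, -4.88 and -5.01 in B16-F1 and -1.82, -1.76 and -1.74 in D5.1G4. The lines were far apart relative to their spread, with a difference of -3.08 (SE 0.13, 8.43-fold, adjusted p = 4.43e-05). With normexp background correction it was -1.58 and not called (adjusted p = 0.108). Tspan18, a regulator of calcium entry in endothelial cells, measured -4.57, -4.24 and -4.30 in D5.1G4. In B16-F1 no array had it well above background, and its values there were -7.82, -7.92 and -8.06. It was at least 2.44-fold lower in B16-F1, a bound set against the lowest signal that counts as well above background on each array. The adjusted p of 3.85e-05 belongs to the fitted difference of -3.57, which uses those B16-F1 values, and the bound itself was not tested. Normexp gave -0.70 for Tspan18 (adjusted p = 0.652), and its other probe was not above background on any array.

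Tspan2, a tetraspanin of oligodendrocytes and other cells, had -5.16, -7.87 and -5.24 in B16-F1 and -3.16, -3.30 and -3.35 in D5.1G4. The lines did not overlap, but B16-F1 replicate 2, the 1 array of the 6 on which the gene was not above background, lay far below the rest. The difference was -2.81 (SE 0.73, adjusted p = 0.0275), and -1.92 (adjusted p = 0.00132) without that array. Leaving out D5.1G4 replicate 1, 2 or 3 ended the call (adjusted p = 0.0722, 0.0767 and 0.0764), as did scan as a block (-1.83, adjusted p = 0.279) and normexp (-0.75, adjusted p = 0.419).

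Cd81, a widely expressed tetraspanin that binds EWI proteins and integrins, measured 5.34, 5.17 and 5.26 in B16-F1 and 6.21, 6.42 and 6.26 in D5.1G4. The separation was clear against the spread, yet the size sat at the threshold: -1.04 (SE 0.12, 2.05-fold, adjusted p = 0.00133). Leaving out replicate 2 of B16-F1 or of D5.1G4 put it just short of 2-fold (-1.00 and -0.97), as did leaving out the arrays of the first scan (-0.96). With quantile normalization or the authors' values it was -0.78 and -0.77. The adjusted p stayed under 0.05 in each of the 19 alternatives run for Cd81, with 0.0488 the highest.

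The start regions of Cd81 and Tspan33 are shown as those of called tetraspanins that were lower in B16-F1 and above background on every array. They are RefSeq windows on GRCm38.p6 of the same extent, with the GC box and the TATA box in capitals, on the + strand at chr7:143052500-143052799 and chr6:29693964-29694263.
Cd81: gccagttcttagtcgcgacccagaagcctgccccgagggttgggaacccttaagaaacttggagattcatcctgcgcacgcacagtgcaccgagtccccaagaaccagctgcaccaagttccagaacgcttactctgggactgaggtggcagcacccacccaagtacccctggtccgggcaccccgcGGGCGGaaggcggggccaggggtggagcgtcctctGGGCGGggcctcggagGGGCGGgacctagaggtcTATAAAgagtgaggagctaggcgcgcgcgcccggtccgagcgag
Tspan33: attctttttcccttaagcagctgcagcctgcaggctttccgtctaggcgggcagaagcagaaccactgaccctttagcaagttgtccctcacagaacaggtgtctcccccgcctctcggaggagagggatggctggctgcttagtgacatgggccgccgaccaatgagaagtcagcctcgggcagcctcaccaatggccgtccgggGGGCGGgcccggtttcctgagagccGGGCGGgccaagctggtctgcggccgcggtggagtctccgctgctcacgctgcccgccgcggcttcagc
The Cd81 window held 3 GC boxes and 1 TATA box, and the Tspan33 window held 2 GC boxes. None of the other motifs was found in either. Tspan2, also called lower, has windows too, which are not shown and held none of the motifs searched. Itga7 and Tspan18 have no window in the table.

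Tspan15 and Tspan7 were higher in B16-F1. Tspan15, like Tspan33 a TspanC8 protein that partners ADAM10, measured -3.32, -2.95 and -3.29 in B16-F1 and -4.32, -4.56 and -5.12 in D5.1G4, and 1 of those 3 arrays had it above background. The difference was 1.48 (SE 0.23, adjusted p = 0.00468), lost with normexp (0.89, adjusted p = 0.251) and without the arrays of the first scan (1.34, adjusted p = 0.0823). Tspan7, an X-linked tetraspanin known from neurons, had 3.00, 2.81 and 2.89 in B16-F1 and 1.54 and 1.51 in D5.1G4 replicates 1 and 3, the spot of replicate 2 being left out. Its difference was 1.37 (SE 0.13, 2.59-fold, adjusted p = 0.00146), and over the alternatives it ran from 1.23 to 1.49. It was called in each of the 18 alternatives that tested it, and the filter for signal on all 6 arrays left it untested. However, leaving out D5.1G4 replicate 1 or 3 or the arrays of the first scan left 1 array in a line. The second scan alone set 1 array against 1, a value with no replicate check.

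The TspanC8 group thus held 1 call in each direction. Besides Tspan33 and Tspan15, its other 4 members, Tspan5, Tspan10, Tspan14 and Tspan17, were not called, at 0.26, 0.52, 0.18 and -0.17. Tspan10, found mainly in pigment cells and the eye, measured 3.38, 3.61 and 3.58 in B16-F1 and 3.01 on the single D5.1G4 array whose spot was kept (adjusted p = 0.117). With outlier spots kept it differed by 0.67 (adjusted p = 0.015), under 2-fold. Tspan17 had a second probe above background on all arrays, which gave 0.50. Adam10 itself, the protease they carry, differed by -0.30 (adjusted p = 0.0998).

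Of the 7 tetraspanins with CD names, 6 were tested and Cd81 alone was called. Cd9, often described as a suppressor of tumour cell motility, measured 1.87, 1.61 and 1.65 in B16-F1 and 0.97, 0.62 and 0.62 in D5.1G4. Those arrays did not overlap, and the difference was 0.98 (SE 0.15, 1.97-fold, adjusted p = 0.00421), just under the minimum fold. Cd9 crossed it when replicate 2 (1.02) or 3 (1.01) of B16-F1 was left out, or replicate 1 of D5.1G4 (1.09), and within the second scan (1.25). Cd81 and Cd9, which can sit in the same complexes, thus had differences of opposite sign, each with an adjusted p under 0.05.

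Cd63, a tetraspanin of late endosomes, melanosomes and exosomes, was at 6.02, 6.08 and 5.89 in B16-F1 and 5.98, 6.49 and 5.81 in D5.1G4, with overlapping arrays (-0.09, SE 0.20, adjusted p = 0.739). Cd151, which binds laminin-receptor integrins directly, measured 4.15, 4.04 and 3.84 against 4.25, 4.62 and 4.52. All its B16-F1 arrays were the lower ones, but -0.45 did not pass (adjusted p = 0.0625), while a second probe gave -1.06 with values from -0.72 to -0.39 in B16-F1 and from 0.31 to 0.65 in D5.1G4. Cd82, known as a metastasis suppressor, overlapped between the lines (-0.02, adjusted p = 0.959), and its other probes gave 0.23 and 0.53. Cd37, a leukocyte tetraspanin, differed by 0.17 (adjusted p = 0.64), and Cd53, also of leukocytes, was not above background on any array.

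Among the other tetraspanins, 4 had an adjusted p of 0.05 or less with a fold under 2. Tspan13 measured -0.69, -0.87 and -0.75 in B16-F1 and 0.61, -0.00 and 0.04 in D5.1G4 and differed by -0.99 (SE 0.19, adjusted p = 0.00996). Leaving out replicate 1 of B16-F1 or replicate 2 or 3 of D5.1G4 took it past the minimum fold (-1.03, -1.09 and -1.07). Tspan13 was also called lower with quantile normalization and with the authors' values, where Cd81 was not called. Tspan12, which promotes Norrin signalling through Frizzled, had 2.96, 2.97 and 2.80 against 3.73, 3.52 and 3.98 (-0.84, SE 0.15, adjusted p = 0.00762). With normexp background correction Tspan12 was called lower. Tspan3, widely expressed, lay at 4.56, 4.39 and 4.34 against 5.09, 5.24 and 5.01 (-0.68, SE 0.12, adjusted p = 0.00741), and Tspan4, a component of migrasomes, at 3.71, 3.90 and 3.65 against 3.02, 3.43 and 3.34 (0.49, SE 0.15, adjusted p = 0.0483). The lines were apart in all 4. Tspan6, Tspan31 and Tspan32 differed by 0.14, -0.16 and 0.02, and Tspan9, at 0.83 with a standard error of 0.54, was too variable to pass (adjusted p = 0.283). Tspan1, Tspan8 and Tspan11, which are known from epithelia or other tissues, were not above background on any array.

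**Figure D4:**
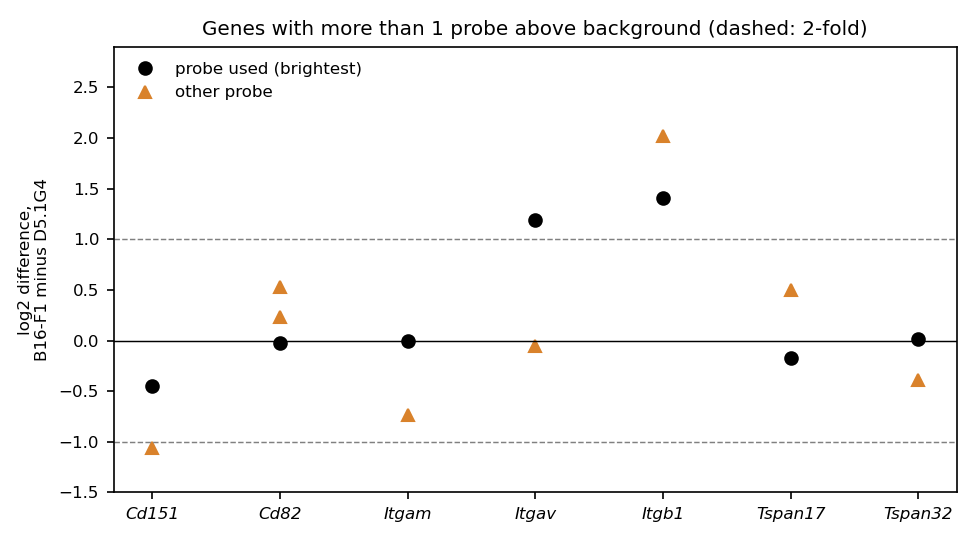
Log2 difference, B16-F1 minus D5.1G4, of each probe that was well above background on at least 3 arrays, for the 7 members with more than 1 such probe; circles are the brightest probe, which stands for the gene, and triangles the others. Both Itgb1 probes lie above the 2-fold line (1.41 and 2.02, the latter with overlapping arrays), whereas those of Itgav lie apart (1.19 and -0.05).

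Several members rest on probes that disagreed. 16 of the 51 members had more than 1 probe, and in 7 of them more than 1 was well above background on at least 3 arrays. Only the Itgb1 probes gave differences past 2-fold in the same direction, although the lines overlapped by the dimmer of them. Itgav and Cd151 each had 1 probe past 2-fold and 1 not, and the Cd82, Tspan17 and Tspan32 probes differed in sign, with Tspan32 at 0.02 and -0.39. Whether such probes read different transcripts was not tested.

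Among the cytoplasmic partners of integrins, 3 of 31 tested adaptor and signalling genes were called higher and 4 lower. That is 22.6% of them, beside 15.2% of all features, and nothing particular to the list is read from it. Tns1, a tensin that links beta tails to actin, measured -0.84, -0.71 and -0.49 in B16-F1 and 2.57, 2.82 and 2.81 in D5.1G4, the largest difference of the list at -3.42 (SE 0.14, adjusted p = 4.4e-05). Rasgrp2, an activator of the small GTPase Rap1 upstream of integrin activation, ran the other way, with -0.75, -0.86 and -1.00 against -3.56, -3.67 and -3.64 (2.75, SE 0.12, adjusted p = 4.43e-05). Dok1, which competes with talin for beta tails, was higher by 1.87 (adjusted p = 0.000485) and Parva, the actin-binding partner of the kinase-like protein ILK, was lower (-1.61, adjusted p = 0.00134), but the mean over the Parva probes was -0.09.

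Kindlin-2 (Fermt2) was called higher (1.04, adjusted p = 0.000732), and zyxin (Zyx) and Nedd9 lower (-1.18 and -1.52). Kindlin-2 stayed under 2-fold with the mean over its probes (0.73) and with normexp (0.89). Nedd9 was no longer called when replicate 2 or 3 of B16-F1 or replicate 3 of D5.1G4 was left out (adjusted p = 0.0728, 0.0899 and 0.0588), nor with scan as a block (-0.67) or normexp (-0.26). Talin (Tln1), focal adhesion kinase (Ptk2) and vinculin (Vcl), core proteins of focal adhesions, were not called, at -0.64, 0.94 and -0.03. Kindlin-3 (Fermt3), the kindlin of blood cells, was above background on 2 arrays and paxillin (Pxn) on 2, and neither was tested.

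Of 15 tested integrin ligand genes, 3 were called higher and 4 lower, 46.7% of them beside 15.2% of all features. Laminin beta-1 (Lamb1) measured 2.59, 2.25 and 1.89 in B16-F1 and -2.26, -1.76 and -2.28 in D5.1G4 (4.35, SE 0.23, adjusted p = 9.81e-05). Lama5 and Col1a1 were higher too, by 1.18 and 1.73. Icam2, the counter-receptor of the Itgal/Itgb2 integrin, was lower (-3.55, SE 0.24), as were Col1a2 (-3.74) and the Itgav ligand gene Mfge8 (-1.52). The fourth, fibronectin (Fn1), measured 2.34, 2.16 and 1.87 in B16-F1 and 4.23 on the 1 D5.1G4 array whose spot was kept. Its call (-2.10) assumes that the lone D5.1G4 array varies like the B16-F1 arrays. Vtn, Vcam1 and Icam1, which encode vitronectin and the counter-receptors of Itga4/Itgb1 and of the leukocyte integrins, were not above background on any array by the probe standing for each gene. Among 9 tested tetraspanin partners 1 was called, 11.1% of them beside 15.2% of all features. It was Hbegf, a growth factor precursor held by Cd9. Its values were -1.86, -2.14 and -2.47 in B16-F1 and -0.55, -0.27 and -0.14 in D5.1G4 (-1.84, SE 0.20, adjusted p = 0.00115). Igsf8, which binds Cd9 and Cd81, differed by 0.57 (adjusted p = 0.00687), under 2-fold.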

How the data were processed

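The deposited scanner files of 6 arrays hold spot intensity, per the file headers from Agilent Feature Extraction 11.0.1.1, background-subtracted and detrended within the array. They also hold marks of 0 or 1 for outlier spots and for signal well above background, per the file headers. The authors' deposited log2 table served as an alternative only; the sources used here do not give its normalization. All per-sample columns were mapped. The log2 of the processed intensity minus the array's 75th percentile was taken, spots marked non-uniform or outlying were left out (0.674% to 1.58% of an array), and repeated spots were averaged by probe. Unversioned accessions gave 27234 of 39429 probes (69.1%) a symbol in the RefSeq table of GRCm38.p6; the array's annotation is mm9. The brightest probe by mean over all arrays stood for a gene. Features well above background on at least 3 of 6 arrays were tested with limma 3.58.1 in R 4.3.3, line as the only term, 2-sided, Benjamini-Hochberg over 18454 features; all adjusted p-values are from it. The fit was tested on simulated data. "At least" folds set a line with no array above background at, per array, the higher of the lowest well-above-background signal and the gene's own. The number of arrays limits the precision. The text names every called member, every tested integrin subunit, CD-named or TspanC8 tetraspanin and up to 4 called genes of each further list, and other members to complete counts or as examples picked once their values were known. Members, lists and tests were chosen with earlier results of these data known. Alternatives changed the normalization, background correction, filter, probe rule, outlier spots, scan, replicate block, variance trend, minimum fold and left out each array in turn. Normexp used the median spot signal, since the mean signal planned for it is not a column of the files.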

Additional observations from a re-analysis of the deposited data

How the results depend on the processing

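Over 19 alternatives no called member changed direction. Of the 10 called members, 1 (Tspan7) was called in every alternative that tested it, 18 of the 19, some of which left it 1 array in a line. Of the 29 uncalled members, 12 changed sign in at least 1 alternative, called in none of those. With normexp background correction 1250 features were called (2801 in the main setting), 1195 of them called the same way in both. It left 1 integrin subunit and 3 of the 6 non-overlapping pair ratios. The 3 tetraspanins it called were Cd81 and Tspan7, as in the main setting, and Tspan12, which was not called there. With no minimum fold the counts were 6436 features, 7 integrin subunits, 11 tetraspanins, 18 adaptor genes and 3 tetraspanin partners. The mean over probes left 1 integrin subunit and scan as a block left 2. Apart from the lower minimum fold, the cause of these changes was not tested. Only features above background on all 6 arrays left 2 tetraspanins, since fewer were tested (17). With no filter 12 pair ratios did not overlap among 22 pairs, and within the second scan 11 of 14, with fewer arrays to overlap. Leaving out 1 array gave 3 to 4 integrin subunits, 5 to 7 tetraspanins and 6 to 9 pair ratios. Quantile normalization, normexp and the authors' values moved the median of all features to 0.01, 0.04 and 0.03; scan as a block moved it to -0.15. Deviations from the line mean correlated across features at -0.39, -0.03 and -0.30 for same-numbered arrays of the lines. For arrays with different numbers they correlated at -0.23 to 0.41. No same-numbered arrays shared a scan, so these values cannot decide whether the replicate numbers pair the arrays. With the replicate block 3 integrin subunits and 6 tetraspanins were called of 2580 features, and Itgav was at an adjusted p of 0.055. Genes not above background have no measurable difference here.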

Other observations

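Some members are neighbours in the genome, with at most 5 protein-coding genes between them in the order of the RefSeq table, and their differences between the lines are given here as values. Tspan18 and Cd82 lie next to each other on chromosome 2, and Tspan18 was called lower while Cd82 differed by -0.02. Tspan32 and Cd81 are adjacent on chromosome 7, at 0.02 and -1.04. Cd151 and Tspan4, on the same chromosome with 1 gene between them, differed by -0.45 and 0.49, neither called. Itga7 lies 2 genes from Cd63 on chromosome 10, at 1.36 and -0.09. Itga1 and Itga2, both collagen receptor subunits, are adjacent on chromosome 13, where Itga1 was called higher and Itga2 was not above background on any array. The difference within each neighbouring pair was not tested.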
